A study of Mus musculus with 4 samples.

Results

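The genes described here encode the core machinery of autophagy, the process by which a cell wraps cytoplasm or organelles in a double membrane, the autophagosome, and delivers them to the lysosome. They were chosen by name, as every gene in the deposited table whose symbol begins with Atg and a digit, together with 20 named partners, among them the LC3 and GABARAP family, the receptors Sqstm1 and Nbr1, the initiation kinases and the transcription factor Tfeb. Receptors for mitochondria were left out. The rule gave 36 genes of the 10790 in the table, and all 36 passed the filter on low values, which kept 10696 genes.

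Polyadenylated RNA was sequenced from whole mouse lenses at postnatal day 4, with a kit that does not mark strand. One group was Tdrd7 -/- and the other was labelled wild type control, with 2 libraries of each. Each library was made from a pool of 15 lenses. The labels give no strain, sex or description of the Tdrd7 allele, and nothing in them says whether the pools shared litters. The protein that Tdrd7 encodes has Tudor domains and is found in RNA granules, and its loss causes cataract in mice and in people.

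Autophagy begins when the ULK kinase complex activates a phosphatidylinositol 3-kinase, whose lipid product recruits proteins that bring membrane and lipid to the growing autophagosome. A ubiquitin-like conjugation system then attaches LC3 and GABARAP proteins to that membrane, and receptors such as p62 (Sqstm1) and NBR1 tie cargo to them. Lens fiber cells lose their organelles as they mature. In mice this loss proceeds without Atg5 in the lens, although such lenses later become cataractous. TDRD7 has itself been linked to the maturation of autophagosomes.

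All values are scaled reads. Within a library they are whole multiples of 1 step, within 0.001 for at least 99.99% of genes, so they were taken as reads multiplied by a common factor and not corrected for length. A step was between 0.0237 and 0.0282 scaled reads, which puts 33920522 to 42767535 reads in the listed genes of a library. Every listed gene reaches at least 1.02 scaled reads in some library, so the step could not be checked on genes with few reads, and the numbers of reads and counting errors given here rest on it. Tdrd7 stood at 1188 and 972 in the control libraries and at 165 and 96.6 in the Tdrd7 null libraries. Lens markers summed to between 234582 and 268301 scaled reads per library, and 1 of 11 was called lower. Endothelial markers, of which 7 of 8 were measured, summed to 20.5 and 11.7 in control replicates 1 and 2, and in the Tdrd7 null libraries these sums were 14.8 and 21.5. The 5 measured markers of pericytes and fibroblasts, of 9, summed to 149 and 151 in control and to 152 and 144 in Tdrd7 null lenses. Of these 5, Notch3 and Pdgfrb fell, with log2 fold changes of -0.50 and -0.34, and Rgs5, Pdgfra and Acta2 stood at 0.35, 0.09 and 0.06 and did not pass. With the trend on base composition described below removed, Notch3 and Pdgfrb stood at -0.26 and -0.19, neither of them called (adjusted p = 0.102 and 0.248 by limma). As deposited, neither was called without control replicate 1, and Pdgfrb was not called without control replicate 2 or Tdrd7 null replicate 2 either. None of 5 macrophage, 7 retina or pigment cell and 4 red blood cell markers was measured. The part of other cells in the results below was not tested. In such whole-lens RNA, fewer cells of a type and less RNA per cell cannot be told apart.

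Between the genotypes, most of the machinery differed by little. Of the 36 genes, 5 rose (Gabarapl1, Nbr1, Atg10, Atg12 and Rb1cc1) and 2 fell (Tfeb and Atg9a) in Tdrd7 null lenses, at a limma p under 0.05 after Benjamini-Hochberg adjustment over all tested genes. That is 19.4% of them, where 18.0% of all tested genes were called. The shares called higher and lower were 13.9% and 5.56%, against 10.1% and 7.88% of all tested genes. The count is therefore near the background of this comparison. The 36 genes had a median log2 fold change of 0.04, and all tested genes one of -0.01, with 19 genes above and 17 below 0. The fold changes ran from -0.43 for Tfeb to 0.44 for Atg10, and the median absolute log2 fold change was 0.16, against 0.13 over all tested genes. The libraries of the genotypes did not overlap for 15 genes that were higher and 11 that were lower in Tdrd7 null lenses (41.7% and 30.6%), beside 30.2% and 31.3% of all tested genes. In either direction that is 26 of the 36 genes, which leaves 27.8% with overlap. Over all tested genes, 61.5% did not overlap.

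Which genes were called changed whichever library was left out. Such fits have 1 residual degree of freedom, so a call can be lost there without a smaller difference. On the log2 scale, without control replicate 1, Atg12 stood at 0.25 and Atg9a at -0.21, against 0.24 and -0.20 with all 4 libraries. In the same fit Gabarapl1 stood at 0.25 and Atg10 at 0.38, against 0.33 and 0.44. Map1lc3b was at -0.50 without Tdrd7 null replicate 1 and at -0.10 without Tdrd7 null replicate 2, against -0.30.

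Base composition moved with these differences. Across all tested genes, those with GC-poor transcripts tended to be higher in Tdrd7 null lenses and those with GC-rich transcripts lower, and the autophagy genes lay along the same slope. The 8 autophagy genes under 45% GC had a median log2 fold change of 0.22, against 0.15 over all 2764 such genes. The 16 autophagy genes from 45% to 52% GC had a median of 0.07, against 0.02 over 3939 genes. The 12 at 52% or more had a median of -0.11, against -0.13 over 3953 genes. Across the 36 autophagy genes, all measured in the same 4 libraries, the correlation of GC content with log2 fold change was -0.70 (Pearson's r, a description over genes that are not independent).

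When the trend of each library with GC content and transcript length was removed, Gabarapl1 alone remained called, higher in Tdrd7 null lenses, and 0 autophagy genes were called lower. Over all tested genes 3.17% were then called, 1.91% higher and 1.27% lower. The libraries did not overlap for 11 of the 36 autophagy genes that were higher and 6 of the 36 that were lower. Over all tested genes these shares were 25.3% and 24.1%. At an unadjusted p under 0.05 there were 17 autophagy genes before this removal (47.2%, against 33.1% of all tested genes) and 6 after it (16.7%, against 18.6%). The median over the 36 genes was 0.05 after removal and over all tested genes it was 0.00. Atg3, which encodes the enzyme that transfers LC3 to lipid, passed in neither fit, at 0.10 before and -0.13 after.

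**Figure D1:**
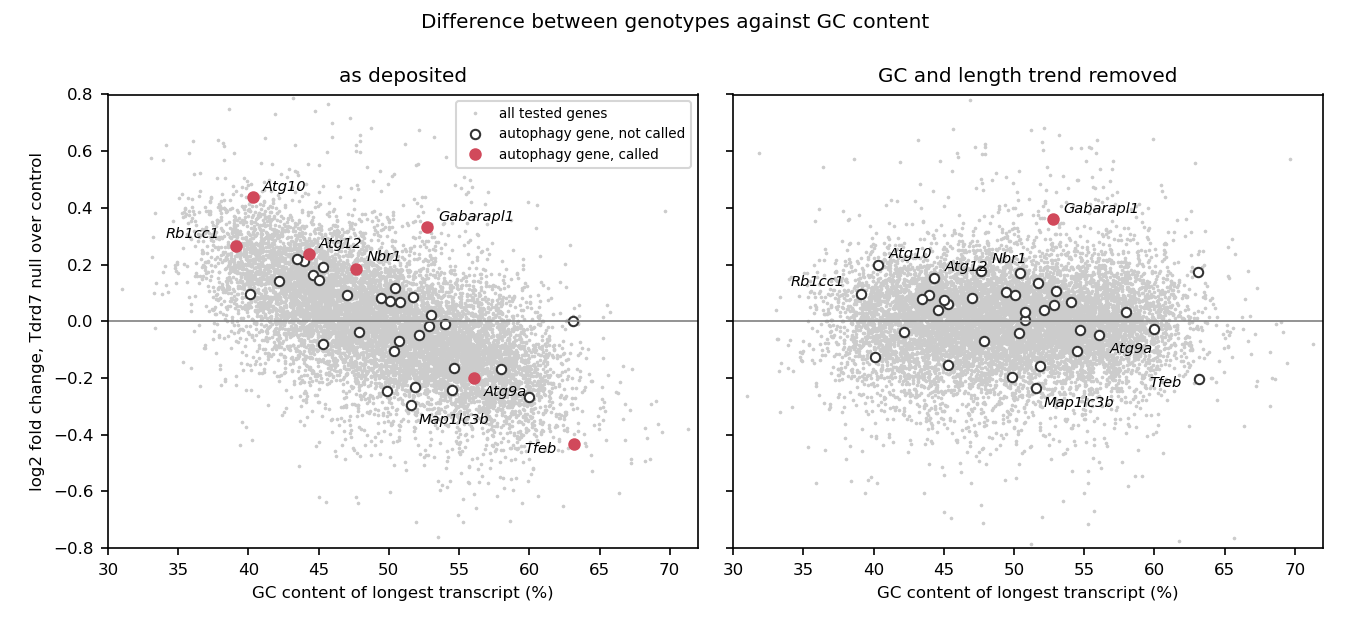
Log2 fold change (Tdrd7 null over control) of each gene against the GC content of its longest transcript, before (left) and after (right) removal of the GC and length trend; grey points are all tested genes and circles are the 36 autophagy genes, filled where called. The vertical axis stops at 0.8 on either side, which leaves out 16 genes on the left and 8 on the right. The horizontal axis is limited too, and genes beyond it, such as 1 with 73.1% GC, are not shown either. On the left the called genes run from Rb1cc1 and Atg10 at low GC content to Tfeb at high GC content, and on the right Gabarapl1 is the single filled circle.

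The LC3 and GABARAP proteins are the small ubiquitin-like proteins that are linked to the autophagosome membrane and bind cargo receptors. Gabarapl1 (ENSMUSG00000030161, chromosome 6 from 129533200 to 129542331 in GRCm38) was measured at 204 and 228 scaled reads in control replicates 1 and 2 and at 272 and 271 in the Tdrd7 null ones. Both Tdrd7 null libraries lay above both control libraries, and the gap between them was wider than that between the control libraries. At least 8443 reads lay behind each value. The means were 216 ± 17.2 and 271 ± 1.07 (SD, n = 2), a ratio of 1.26. On the log2 scale the difference was 0.33 (SE 0.0594, adjusted p = 0.00396 by limma), and 0.36 with the GC and length trend removed (SE 0.0503, adjusted p = 0.00304).

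Gabarapl1 was not called without control replicate 1, at 0.25 (limma adjusted p = 0.0596), or with a prior that ignored intensity (adjusted p = 0.0682). Its call held in the other 15 of 17 alternative settings, at 0.29 to 0.41. Among these, the threshold of 0.1 reuses the main fit, so the call could not be lost there. The 4 fits that combined the removal of the GC trend with leaving out a library put Gabarapl1 at 0.30 to 0.42. Each of them has 1 residual degree of freedom, so only the size of the difference is given. Exons of Gabarapl1 share 570 nt with the transcript 1700101I11Rik on the opposite strand, and without strand the reads of these genes cannot be told apart there.

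The other members of the family did not pass. Gabarap stood at 63.1 and 65.6 scaled reads in control and at 69.8 and 65.2 in Tdrd7 null lenses, so the groups overlapped (log2 fold change 0.07, 95% interval -0.06 to 0.19). Gabarapl2 stood at 25.2 and 24.8 in control and at 29.8 and 27.5 in Tdrd7 null lenses, without overlap (0.19, SE 0.0656, limma adjusted p = 0.0613), and at 0.06 with the GC trend removed. Its values are uncertain, since 3 processed pseudogenes hold at least 349 nt that is nearly identical to it. The groups also overlapped for Map1lc3a, which encodes LC3A. Its control values were 4.80 and 6.39 and its Tdrd7 null values 5.001 and 6.14 (0.00, 95% interval -0.27 to 0.27).

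Map1lc3b, which encodes LC3B, the form most often used to follow autophagy, stood at 12.4 and 13.6 scaled reads in control and at 12.1 and 8.90 in Tdrd7 null lenses. The low value lay in Tdrd7 null replicate 2, and its log2 fold change of -0.30 did not pass (SE 0.112, limma adjusted p = 0.0821). Without Tdrd7 null replicate 1 it was -0.50 and passed (adjusted p = 0.00244), and without Tdrd7 null replicate 2 it was -0.10. Map1lc3b also has 4 processed pseudogenes with nearly identical stretches of at least 280 nt, and its values are uncertain for that reason.

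Levels of different genes can be compared only per length, taken here as scaled reads per kb of the longest annotated transcript, which need not be the one used in the lens. On this scale Gabarapl1 stood at 112 and 125 in control and at 150 and 149 in Tdrd7 null libraries, above every other autophagy gene and at percentile 98.5 of all listed genes. The means over the 4 libraries were 48.8 per kb for Gabarap and 16.0 for Gabarapl2, and 5.02 and 2.84 for Map1lc3a and Map1lc3b. The ranges of these 5 genes over the libraries did not overlap. Gabarapl1 made up 61.8% and 63.4% of the family's sum per kb in control and 66.1% and 67.3% in Tdrd7 null libraries. LC3 transcripts made up between 3.28% and 4.56%.

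**Figure D2:**
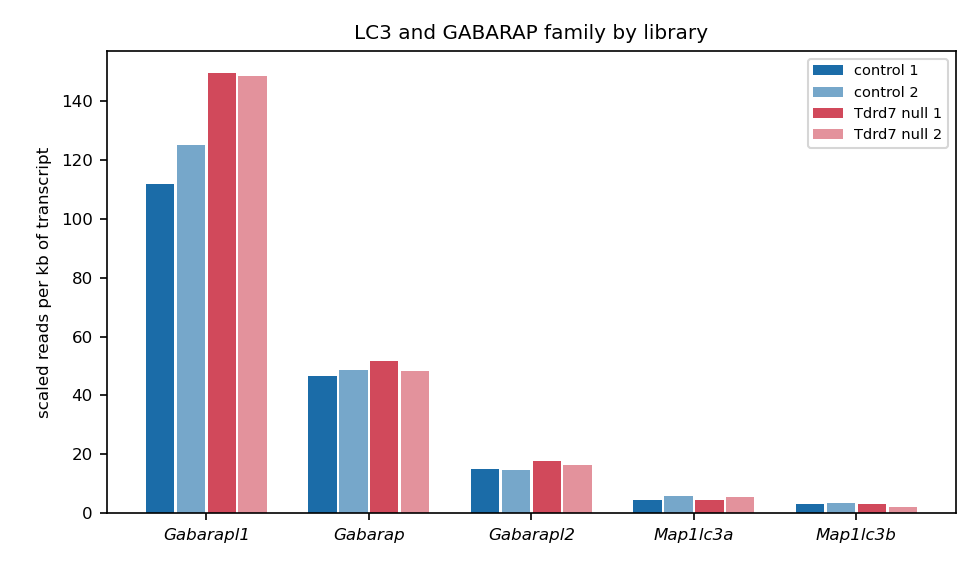
Level of the 5 LC3 and GABARAP family genes in each library, in scaled reads per kb of the longest transcript; each bar is 1 library, blue for control and red for Tdrd7 null. Gabarapl1 is the tallest in every library, and its Tdrd7 null bars (150 and 149) stand above its control bars (112 and 125).

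Conjugation enzymes and their substrates formed the largest group, with 11 genes, of which 2 rose, 0 fell and 9 did not pass. Atg10, the enzyme that attaches ATG12 to ATG5, stood at 6.01 and 6.60 scaled reads in control and at 8.25 and 9.57 in Tdrd7 null lenses, without overlap. Its log2 fold change, 0.44, was the largest among the 36 genes (SE 0.0965, limma adjusted p = 0.00975). Its transcript has 40.3% GC, and with the trend removed it stood at 0.20 (adjusted p = 0.265). Its call was also lost without control replicate 1 (0.38) and without Tdrd7 null replicate 2 (0.34).

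Atg12, the ubiquitin-like protein that is joined to ATG5, stood at 46.5 and 45.5 scaled reads in control and at 54.7 and 54.0 in Tdrd7 null lenses. Within each genotype the libraries were close and the groups did not overlap. They differed by 0.24 on the log2 scale (SE 0.0555, limma adjusted p = 0.0133), and by 0.15 with the trend removed (adjusted p = 0.119). Without control replicate 1 or 2 the call was lost, at 0.25 and 0.22 (adjusted p = 0.0689 and 0.0936).

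Atg5, the acceptor of ATG12, and Atg7, the enzyme that activates both ubiquitin-like proteins, did not pass. Atg5 stood at 7.07 and 7.50 in control and at 8.14 and 8.42 in Tdrd7 null lenses (log2 fold change 0.16, limma adjusted p = 0.206). Atg7 stood at 11.5 and 11.6 in control and at 12.2 and 11.3 in Tdrd7 null lenses, with overlap (0.02, 95% interval -0.15 to 0.19). Atg16l1, which directs the ATG12-ATG5 conjugate to the membrane, had a fold change of -0.08. The proteases that process LC3 and GABARAP proteins were at 0.14 for Atg4a, 0.08 for Atg4b, 0.21 for Atg4c and -0.24 for Atg4d, and none passed. Atg4a has a copy, Atg4a-ps, that is 99.3% identical over 2115 nt, so its value is uncertain. Exons of Atg4d share 1405 nt with Kri1 on the opposite strand. The lowest gene was Atg16l2, a paralogue of Atg16l1, with between 56 and 92 reads per library and a fold change of -0.25 (SE 0.126). At 56 reads, counting error alone has an SD of 13.4%.

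Promoter sequences were examined for the E-box CACGTG, to which TFEB and related factors bind, and for its extension GTCACGTG, found in the element through which TFEB acts on lysosomal and autophagy genes. Windows from 250 bases before to 50 after the annotated start were found in RefSeq (GRCm38.p6) for 29 of the 36 genes, 36 windows in all. Atg12 and Rb1cc1, both called, had no window and were not examined. The same holds for Atg16l1, Becn1, Epg5, Map1lc3a and Pik3c3. On either strand, 4 of 36 windows held the E-box (11.1%), against 7.15% of all 32851 windows. The longer form, which contains the E-box, was in 3 (8.33%), against 2.25% of all windows. Shares over so few windows are descriptions, some genes have more than 1 window, and the difference was not tested. The FOXO motif TGTTTAC was in 0 of the 36 and in 3.65% of all. The windows with an E-box belonged to Atg3, Atg5, Atg7 and Atg14, none of which passed, and that of Gabarapl1 held none. These 5 are shown because they set the genes with the motif beside the gene with the clearest difference. Each runs 5′ to 3′ on the gene's strand from 150 bases before to 20 after the start, with the E-box or its longer form in capitals. The Atg7 window lies at an annotated start inside the gene.
Gabarapl1, chr6:129533042-129533211, plus strand: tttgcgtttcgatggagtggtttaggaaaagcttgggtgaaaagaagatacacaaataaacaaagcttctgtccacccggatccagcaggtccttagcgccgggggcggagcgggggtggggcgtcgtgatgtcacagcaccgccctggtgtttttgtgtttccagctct
Atg3, chr16:45158679-45158848, plus strand: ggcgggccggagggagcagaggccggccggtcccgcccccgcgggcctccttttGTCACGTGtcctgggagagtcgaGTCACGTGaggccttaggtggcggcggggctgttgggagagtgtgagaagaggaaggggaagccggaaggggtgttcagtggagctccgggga
Atg5, chr10:44268189-44268358, plus strand: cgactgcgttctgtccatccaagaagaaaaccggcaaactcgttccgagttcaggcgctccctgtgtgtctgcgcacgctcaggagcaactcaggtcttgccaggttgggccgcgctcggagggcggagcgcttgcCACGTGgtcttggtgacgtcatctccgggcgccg
Atg7, chr6:114670946-114671115, plus strand: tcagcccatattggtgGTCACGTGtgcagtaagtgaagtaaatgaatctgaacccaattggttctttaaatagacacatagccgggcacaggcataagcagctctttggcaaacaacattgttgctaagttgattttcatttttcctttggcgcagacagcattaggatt
Atg14, chr14:47568415-47568584, minus strand: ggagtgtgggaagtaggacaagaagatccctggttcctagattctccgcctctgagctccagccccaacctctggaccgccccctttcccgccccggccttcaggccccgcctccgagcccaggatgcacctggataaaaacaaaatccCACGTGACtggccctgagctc
The E-box begins 94 bases before the start in Atg3, which holds a second copy, 14 before it in Atg5, 132 in Atg7 and 1 in Atg14. A match of letters is not a binding site, and its absence says only that these letters are not in the window.

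Among cargo receptors, which bind both ubiquitinated cargo and LC3 or GABARAP proteins, Nbr1 rose and Sqstm1 did not pass. Nbr1 stood at 118 and 122 scaled reads in control and at 137 and 135 in Tdrd7 null lenses, without overlap (log2 fold change 0.18, SE 0.0513, limma adjusted p = 0.0266). With the GC trend removed Nbr1 kept its size but not its call (0.18, SE 0.0464, adjusted p = 0.0607). By limma, Nbr1 had an unadjusted p of 0.00322 before removal and 0.00233 after it. It also lost its call in each of the 4 fits without 1 library, where the fold change lay between 0.16 and 0.21 and the adjusted p between 0.0704 and 0.164. Sqstm1, which encodes p62, stood at 99.2 and 108 in control and at 106 and 99.6 in Tdrd7 null lenses. These groups overlapped, and the fold change was -0.01 (95% interval -0.14 to 0.12). Exons of Sqstm1 share 580 nt with Mrnip on the opposite strand.

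In the initiation group, 1 of 5 genes rose and 0 fell. Rb1cc1, which encodes FIP200, the scaffold of the ULK complex, stood at 30.4 and 31.2 scaled reads in control and at 35.0 and 39.5 in Tdrd7 null lenses, without overlap (0.26, SE 0.0677, limma adjusted p = 0.0192). It has the lowest GC content of the 36 genes, 39.1%, and stood at 0.10 with the trend removed (adjusted p = 0.429). Leaving out control replicate 1 (0.25), control replicate 2 (0.28) or the second Tdrd7 null library (0.18) ended its call. Exons of Rb1cc1 share 558 nt with the antisense transcript 4732440D04Rik. The kinase genes had fold changes of -0.17 for Ulk1 and 0.09 for Ulk2, and neither passed. Ulk1 stood at 12.3 and 12.7 in control and at 10.7 and 11.3 in Tdrd7 null lenses, without overlap (limma adjusted p = 0.15), and at 0.03 with the trend removed. Atg13, an adaptor of the complex, was at -0.02 and Ambra1, which links ULK1 and Beclin 1, at -0.17.

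None of the 5 genes of the phosphatidylinositol 3-kinase complexes passed limma's adjusted threshold, before or after removal of the GC trend, and 2 of them, Becn1 and Pik3r4, had an unadjusted p under 0.05 before it. Becn1, which encodes the regulatory subunit Beclin 1, stood at 60.2 and 57.9 scaled reads in control and at 65.4 and 65.4 in Tdrd7 null lenses. Its groups did not overlap, and its fold change was 0.15 (limma adjusted p = 0.0796). Exons of Becn1 share 3104 nt with Cntd1 on the opposite strand. Pik3c3, the catalytic subunit, was at -0.04 (95% interval -0.20 to 0.13). Pik3r4, its regulatory partner, was at -0.23 (adjusted p = 0.0939), with control values of 8.27 and 8.16 and Tdrd7 null values of 6.41 and 7.29. Atg14 and Uvrag, which define the autophagy and endosome forms of the complex, were at 0.07 and 0.12, and their groups overlapped. Both share exons with antisense transcripts, over 239 nt and 1589 nt.

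Of 6 genes that supply membrane and lipid, 1 fell and 0 rose. Atg9a, which encodes a lipid scramblase carried on the vesicles that seed the autophagosome, stood at 56.3 and 56.8 scaled reads in control and at 48.3 and 50.04 in Tdrd7 null lenses, without overlap. It fell by 0.20 on the log2 scale (SE 0.0555, limma adjusted p = 0.0273). Its transcript has 56.0% GC, and with the trend removed it stood at -0.05 (adjusted p = 0.669). It lost its call in each of the 4 fits without 1 library, at -0.17 to -0.22, and shares 1832 nt with Gm29253 on the same strand. Atg2a, a lipid transfer protein, had the largest fold change of this group, -0.27, with control values of 10.98 and 12.9 and Tdrd7 null values of 9.47 and 9.97, and did not pass (adjusted p = 0.0533). This size rested on control replicate 2, without which Atg2a was at -0.16 (adjusted p = 0.39), smaller than Vmp1 and Atg9a in the same fit. Vmp1, an endoplasmic reticulum scramblase, was at 0.22 (adjusted p = 0.0528), and without Tdrd7 null replicate 1 it was at 0.29 and passed (adjusted p = 0.0227). Without Tdrd7 null replicate 2 Vmp1 was at 0.14 (adjusted p = 0.315), and it did not pass without either control library. With the trend removed Atg2a and Vmp1 stood at -0.03 and 0.08. Wipi1 and Wipi2, which read the kinase's lipid product, were at 0.09 and -0.05, and Atg2b was at -0.10.

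Tfeb, the transcription factor that activates lysosomal and autophagy genes, fell in Tdrd7 null lenses. It stood at 7.43 and 6.88 scaled reads in control and at 5.48 and 4.62 in Tdrd7 null lenses, without overlap, with at least 164 reads behind each value. The decrease, -0.43 on the log2 scale, was the largest among the 36 genes (SE 0.101, limma adjusted p = 0.0129). Its GC content of 63.2% is the highest of them, and with the trend removed it stood at -0.20 (SE 0.0975, adjusted p = 0.289). Leaving out control replicate 1 (-0.39), control replicate 2 (-0.48) or the second Tdrd7 null library (-0.33) also ended its call. Epg5, a tether for the fusion of autophagosomes with lysosomes, was at -0.07 and did not pass.

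**Figure D3:**
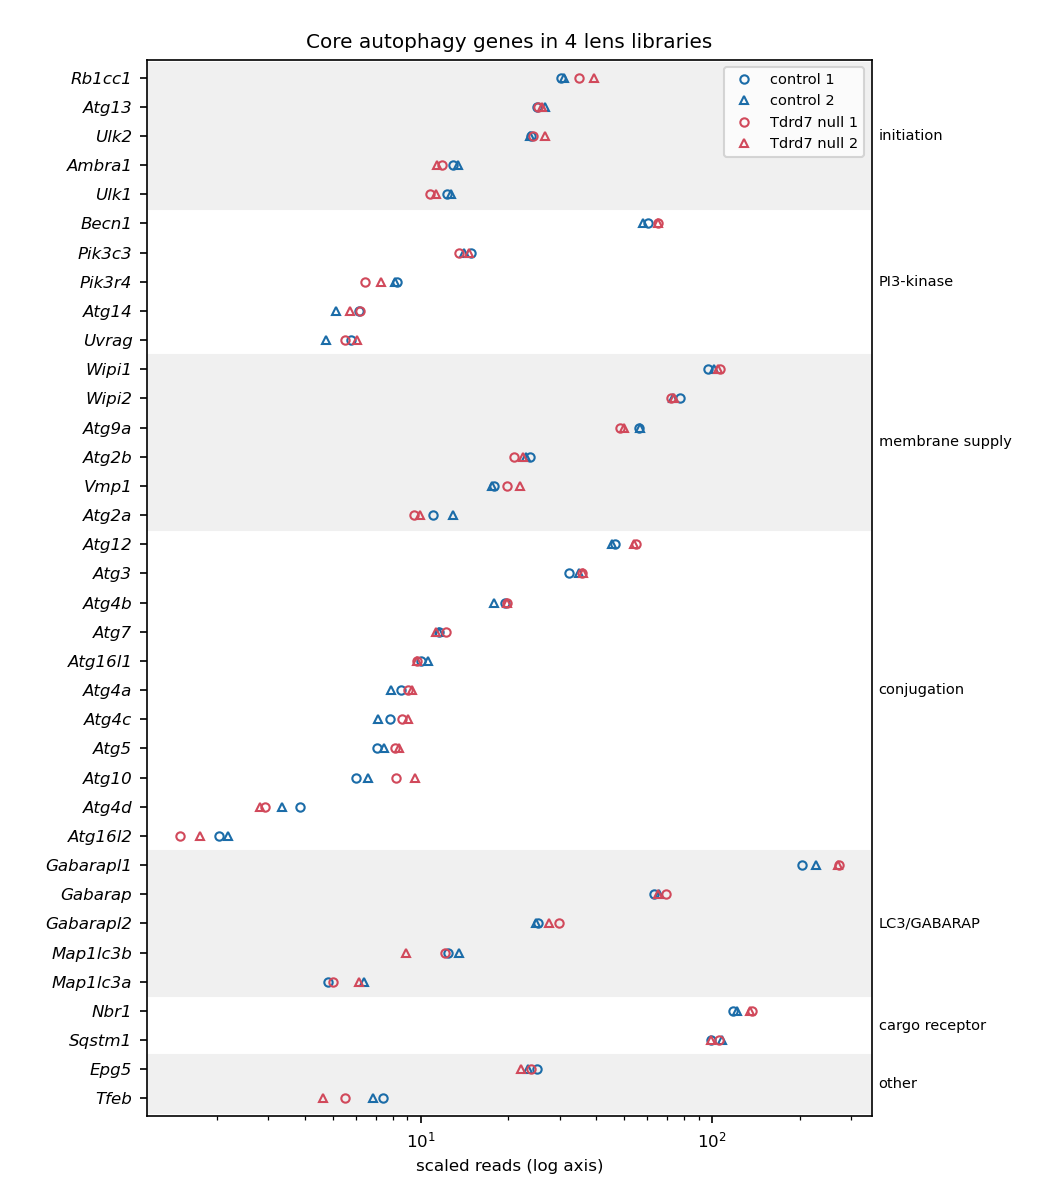
Scaled reads of the 36 autophagy genes in each of the 4 libraries, on a log axis, grouped by role; blue symbols are control, red are Tdrd7 null, circles are replicate 1 and triangles replicate 2. Red and blue lie close together for most genes, and Gabarapl1 is the gene with the most reads.

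**Figure D4:**
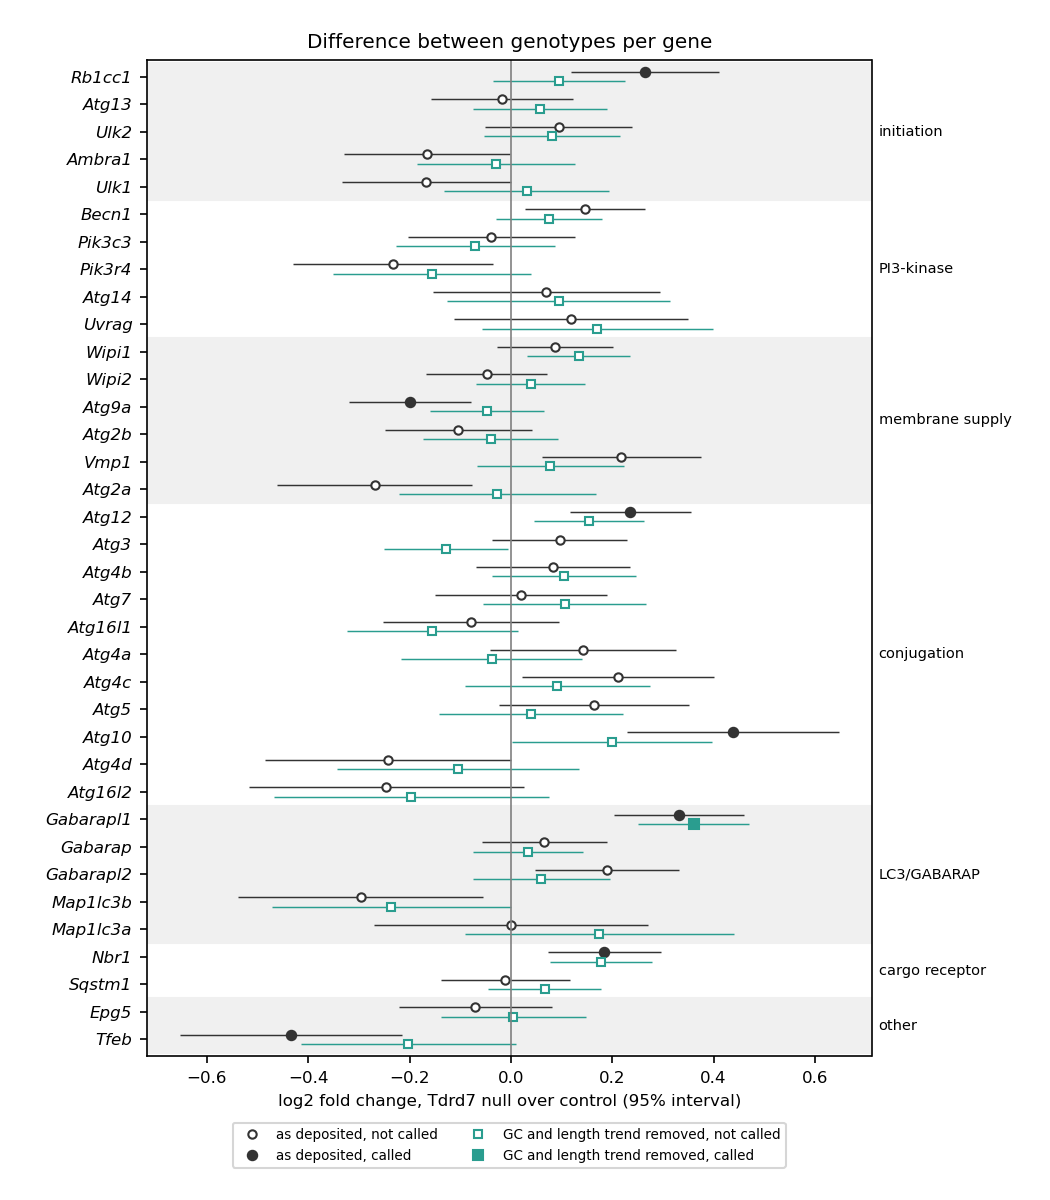
Log2 fold change (Tdrd7 null over control) of each autophagy gene with its 95% interval from limma, as deposited (black circles) and with the GC and length trend removed (green squares); filled symbols are called. There are 7 filled black circles and 1 filled green square, that of Gabarapl1.

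Genes that act around this machinery were taken from 5 lists. Of their 71 genes 64 were measured, and 5 rose and 3 fell. These 8 are 12.5% of those measured, below the 18.0% called over all tested genes. With the GC trend removed 1 was higher and 1 lower, or 3.12%, near the 3.17% of all tested genes. Which of these genes were called also changed with the library left out. Among 24 genes of nutrient sensing, which hold autophagy in check or release it, 2 rose and 2 fell (median log2 fold change -0.04). Prkaa2, a catalytic subunit of the energy sensor AMPK, rose from 43.3 ± 1.65 to 52.4 ± 2.47 scaled reads (SD, n = 2; 0.27). Rheb, an activator of the kinase mTOR, rose by 0.26, and Rptor, a subunit of its complex, fell from 34.0 ± 0.0180 to 28.2 ± 0.473 (-0.26). None of these 3 passed with the trend removed, at 0.13, 0.17 and -0.08. Prkaa2 (0.22 to 0.31) and Rptor (-0.28 to -0.25) each lost the call as deposited in some fits without 1 library. The fourth, Prkab1, an AMPK subunit chosen after its values were seen, fell (-0.35) and did not pass with the trend removed either (-0.26, limma adjusted p = 0.219). Prkaa1, another AMPK subunit chosen in this way, was called with the trend removed alone, at -0.41 (limma adjusted p = 0.0448), against -0.24 (adjusted p = 0.111) before. Its call with the trend removed was lost without control replicate 1 (-0.36), control replicate 2 (-0.46) or the second Tdrd7 null library (-0.30). Rheb stood at 0.15 without control replicate 1, as deposited.

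Among 10 measured factors of initiation and membrane supply outside the core, 2 rose and 0 fell (median -0.06). Trp53inp2, whose protein binds LC3 and GABARAP proteins, stood at 7.14 and 9.46 scaled reads in control and at 11.6 and 11.5 in Tdrd7 null lenses. It rose by 0.44 (SE 0.107, limma adjusted p = 0.0152) and by 0.52 with the trend removed (adjusted p = 0.0204). Both calls rested on control replicate 1, without which the differences were 0.26 (adjusted p = 0.157) and 0.33 (adjusted p = 0.137). Sh3glb1, a membrane-bending partner of UVRAG, rose by 0.27 and was at 0.18 with the trend removed (adjusted p = 0.0628). Its call as deposited was lost without control replicate 2 (0.23). Among 15 genes of fusion with the lysosome, 0 rose and 1 fell (median -0.10). It was Plekhm1, an adaptor between LC3 and the lysosome (-0.28, and -0.11 with the trend removed), which stood at -0.16 without Tdrd7 null replicate 2. Among 9 other cargo receptors 1 rose, the endoplasmic reticulum protein Sec62 (0.32, and 0.18 with the trend removed), and 0 fell (median -0.05). None of 6 other transcription factors of autophagy genes, such as Tfe3 (-0.09), Mitf (0.10) and Foxo3 (-0.21), passed limma's adjusted threshold, and 1 had an unadjusted p under 0.05.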

How the data were processed

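Whole lenses from control and Tdrd7 null mice were compared, with 2 pooled libraries each. Replicates are labelled biological, but no label says which animals a pool held, so p-values measure the spread between pools. For each gene that spread was estimated in part from other genes of like intensity, through the prior given below. Per the submitters' processing notes, the tools included Trimmomatic, TopHat2 2.0.9, Cufflinks and Cuffnorm on mm10 (GRCm38). No source used here says how reads were counted or scaled. The table deposited by the authors holds signal values that step evenly within each library.

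Genes with a mean of at least 1 were tested as log2(scaled reads + 1), a scale that understates fold changes of low genes. The test was that of limma 3.58.1 in R 4.3.3 (intensity-dependent prior, two-sided, Benjamini-Hochberg over 10696 genes). There were 2 residual degrees of freedom, to which the prior added 11.1. An exact permutation test of 2 against 2 cannot go below p = 0.333. The longest transcript in GENCODE M21 gave GC content and length for 10750 of 10790 genes and all 36 described. Each library's trend on both was removed with natural splines of 5 degrees of freedom each. Copies were sought with BLAST+ 2.17.0 at 95% identity or more over at least 250 nt, and shared exons from 100 nt. Only copies annotated or named as pseudogenes were kept, so nearly identical stretches in other genes are not reported.

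The genes, lists and tests were chosen with earlier results of these data known. Genes given by library were those called, the LC3 and GABARAP family, Sqstm1, Nbr1, Becn1, Ulk1, Atg5, Atg7, Tfeb and the largest difference in each role. Up to 3 called genes per related list were named by smallest p. Counts per gene list are descriptions, since no set test was run. Genes named outside this rule are given by their fold change.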

Additional observations from a re-analysis of the deposited data

How the results depend on the processing

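The main counts were 5 autophagy genes called higher, 2 lower and 8 related genes called. Leaving out 1 library in turn gave 0 to 5, 0 to 2 and 1 to 9. With a prior without the trend they were 0, 0 and 0, by limma's adjusted p. At an adjusted p under 0.1 they were 8, 5 and 13. With the GC and length trend removed they were 1, 0 and 2, and with the replicate block added to that, again 1, 0 and 2. The replicate block alone gave 6, 4 and 10, but replicate numbers only name pools. Deviations of same-numbered libraries had a correlation of -0.151, and a crossed pairing, chosen after seeing the data, gave 8, 5 and 14. Scaling without the crystallins gave 4, 4 and 11, and moved the median of all genes from -0.01 to -0.04. Removal of the trend together with leaving out a library put Gabarapl1 at 0.30 to 0.42. These combined fits were also chosen after seeing the data. The cause of these shifts was not tested, although fits without a library have 1 residual degree of freedom. Pseudocounts of 0.1 and 5, no filter, a minimum mean of 5, TMM and median-ratio scaling and a robust prior kept each count within 1.5 times. No called gene changed direction under any alternative. The planned count models were not run, because the table holds scaled values and the reads inferred from their steps could not be checked on genes with few reads, which it does not list. Depth limits the lowest genes, with 56 reads behind the smallest value.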
